A study of Bos taurus with 6 samples.

Results

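The expression of 10 genes of collagen processing, collagen crosslinking and matrix turnover was described in longissimus dorsi samples from 6 cattle aged 18 months, 3 of the Shandong black breed and 3 of the Luxi breed, with 1 RNA-Seq library per animal. The genes were CPXM1, LOX, LOXL1, P4HA1, PLOD1, SERPINH1, MMP2, MMP14, TIMP1 and TIMP2, which are 10 of 18010 genes listed in the files and 10 of 9781 genes expressed highly enough to be tested. They were selected on their function and on their FPKM in these same animals, so their breed differences are given as a description and not as a test. Per the study's methods, the breeds came from different companies and were kept under unified feeding management. Its discussion describes the Shandong black cattle as offspring of cloned animals and the Luxi cattle as the clone receptor. Breed and origin therefore cannot be told apart.

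Collagen chains are hydroxylated on proline and lysine and folded into a triple helix inside the endoplasmic reticulum, and are trimmed and assembled into fibrils after secretion. Lysyl oxidases then form the crosslinks that make fibrils stable, and these crosslinks are known to contribute to the toughness of beef. Matrix metalloproteinases cut collagen and other matrix proteins, and the tissue inhibitors of metalloproteinases (TIMPs) block them. In muscle most of these proteins come from fibroblasts and related cells between the fibres, while the fibres supply most of the RNA.

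Expression is given as FPKM, a read level scaled to transcript length and library size, summed over the transcripts of a gene. The libraries held 14.1 to 14.6 aligned gigabases in Shandong black animals and 17.52 to 17.99 in Luxi animals, as read from the ratio of coverage to FPKM. The Shandong black replicate 2 and the Luxi replicate 1 had 161263 and 175373 transcripts listed, against 121048 to 134905 in the other libraries. Transcripts left out of the gene sums held 28.2% and 29.8% of their FPKM, against 21.6% to 25.6% in the other libraries. The 8 genes fixed as skeletal muscle fibre markers were detected in all 6 libraries, and ACTA1, the actin of the skeletal muscle fibre, ranged from 12237 to 54910 FPKM. The lowest ACTA1 was in the Luxi replicate 1, which also had the highest summed FPKM of 6 smooth muscle and pericyte markers, 305 against 52.9 and 116 in the other Luxi cattle. RGS5 held 131 of the 305, against 8.22 and 13.5 in the Luxi replicates 2 and 3. CSPG4 went the other way, at 1.42 in the Luxi replicate 1 against 1.49 to 1.84 in Shandong black animals. The fibre markers CKM, MYH7 and DES were also lowest in the Luxi replicate 1, while MYH1, MYH2, TTN and MB were not. The summed FPKM of 6 adipocyte markers was 126 to 191 in Shandong black animals and 35.4 to 53.5 in Luxi animals. One of them, LPL, went the other way, with 17.5, 17.0 and 16.7 FPKM against 37.2, 23.3 and 36.2, and without it the sum was 109 to 173 against 2.04 to 17.3. The summed FPKM of 5 endothelial markers was 19.5 to 20.8 against 24.8 to 66.0, and that of 6 macrophage markers was 16.6 to 25.6 against 6.70 to 19.3. Not all markers followed these sums. CLDN5 was level, with means of 2.85 and 2.87 FPKM. KDR in the Luxi replicate 2 and TEK in the Luxi replicate 3 were below every Shandong black animal. Of the macrophage markers, C1QA had means of 11.2 and 4.39, while CD68 had 0.382 and 0.492, and MRC1 overlapped between the breeds. The adipocyte marker LEP was at 0 in the Luxi replicate 1 and the macrophage marker AIF1 in the Luxi replicate 3. The part of these cell types in the breed differences of the 10 genes was not tested. In whole muscle, fewer cells of a type and less RNA per cell cannot be told apart.

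Among the 10 genes, CPXM1 was far higher in every Luxi animal, SERPINH1 was about 2.11 times higher in the Luxi mean without overlap of the breeds, and in the other 8 genes the breeds overlapped. A gene was called when the limma adjusted p over all genes tested was under 0.05 and the log2 fold change was at least 1 in size. CPXM1 was the 1 member called, beside 2.57% of all genes tested, with 1.54% called higher and 1.02% called lower in Luxi cattle. It passed the filter, a mean FPKM of at least 1 in either breed, only through the Luxi animals, and it was selected on these values, so nothing is read from its call. CPXM1 and SERPINH1 were the 2 members in which the breeds did not overlap, beside 29.1% of all genes tested. The median log2 fold change of Luxi over Shandong black cattle was 0.07 over the 10 genes and 0.13 over all genes tested, and the genes split into 5 higher and 5 lower. Under median-of-ratios size factors the median over all genes was 0.02 and the share of called genes that were higher in Luxi cattle went from 60.2% to 45.2%, and none of the 10 genes changed direction.

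**Figure D1:**
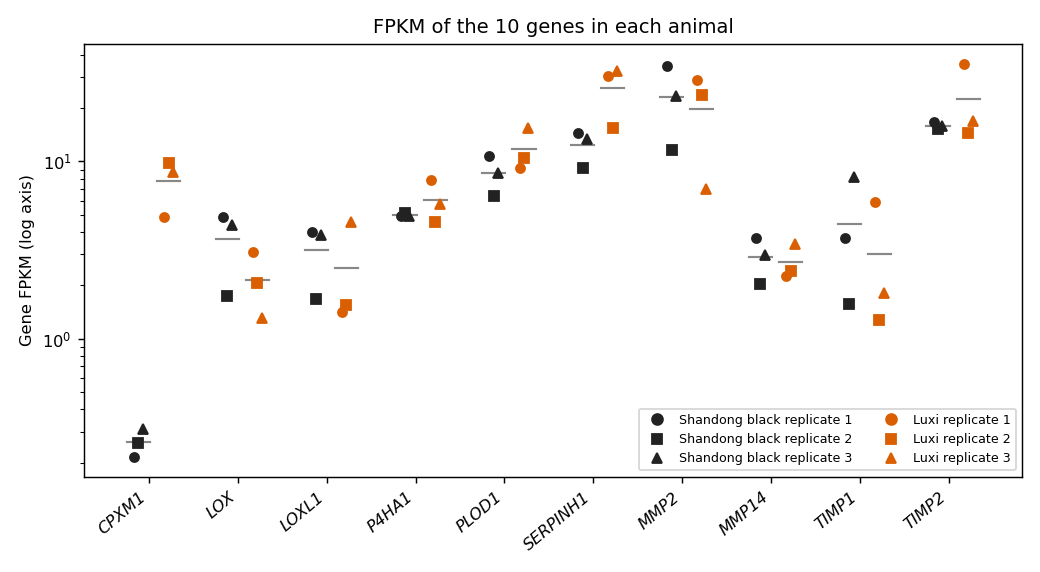
FPKM of the 10 genes (log axis) in each animal, with Shandong black cattle in black, Luxi cattle in orange, a marker shape for each replicate number and grey bars for the breed means. CPXM1 lies between 0.215 and 0.310 in Shandong black animals and between 4.83 and 9.85 in Luxi animals, while most other genes overlap.

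CPXM1 encodes carboxypeptidase X, a secreted relative of the metallocarboxypeptidases. In ARS-UCD1.2 the gene spans chromosome 13 from 52382863 to 52389209 on the plus strand, and its reference transcript has 14 exons. Its FPKM was 0.215, 0.258 and 0.310 in the Shandong black replicates 1, 2 and 3. In the Luxi replicates 1, 2 and 3 it was 4.83, 9.85 and 8.67. The lowest Luxi animal was thus far above the highest Shandong black animal, and the means were 0.261 ± 0.047 (SD, n = 3) and 7.78 ± 2.62 (SD, n = 3). The ratio of the means was 29.8. On the log2(FPKM + 1) scale, which understates the change of a gene this low, the log2 fold change was 2.75 (SE 0.25).

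The low end of the CPXM1 comparison rested on little coverage. In Shandong black cattle its transcripts were covered by 3.03, 3.77 and 4.48 reads per base, and in the Luxi replicates 2 and 3 by 173 and 152. In the Shandong black replicates 2 and 3 the whole value came from assembled transcripts of 11 and 10 exons inside the gene, and the reference transcript was not listed. An assembled transcript on the opposite strand, which was not added, held 0.199 FPKM in the Shandong black replicate 2, near the 0.258 on the strand of the gene. In the Luxi replicate 1, the reference transcript had an FPKM of 2.89 and an assembled transcript of 16 exons had 1.94. The call was lost when the Shandong black replicate 1 or the replicate 3 was left out, where the log2 fold changes were 2.73 and 2.78. In these fits only 10 and 3 of all genes were called, against 251 with all animals, so the loss is not particular to CPXM1. With a pseudocount of 0.1 in place of 1 the log2 fold change was 4.39.

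The enzymes and the chaperone that act on collagen inside the cell are P4HA1, PLOD1 and SERPINH1. SERPINH1 encodes HSP47, the collagen-specific chaperone of the endoplasmic reticulum, and lies on chromosome 15 from 54738093 to 54748404. The Shandong black replicates 1, 2 and 3 had 14.5, 9.12 and 13.3 FPKM, against 30.3, 15.4 and 32.2 in the Luxi replicates 1, 2 and 3. The Luxi replicate 2 stood only just above the highest Shandong black animal. The means were 12.3 ± 2.81 and 26.0 ± 9.21 (SD, n = 3 each), and the log2 fold change was 0.97 (SE 0.33). It met neither the size nor the adjusted p required for a call. It was 0.83 without the Luxi replicate 1, the animal with the low ACTA1, and 0.79 without the Shandong black replicate 2.

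PLOD1 encodes a lysyl hydroxylase, whose hydroxylysines take part in crosslinks, and lies on chromosome 16 from 41718740 to 41748319. Its FPKM was 10.8, 6.42 and 8.56 in Shandong black animals, against 9.19, 10.5 and 15.5 in Luxi animals, with a log2 fold change of 0.40 (SE 0.26). The breeds overlapped, and the highest value was in the Luxi replicate 3. P4HA1 encodes a catalytic subunit of prolyl hydroxylase, which stabilises the triple helix, and lies on chromosome 28 from 29067105 to 29167495. Its FPKM was 4.90, 5.09 and 4.95 in Shandong black cattle, a range narrower than that of any other member in proportion to its mean, and 7.84, 4.58 and 5.72 in Luxi cattle. The Luxi replicate 2 lay below all Shandong black animals, and the log2 fold change was 0.21 (SE 0.21) and 0.03 without the Luxi replicate 1.

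The crosslinking enzymes LOX and LOXL1 were lower in the Luxi means. LOX, the lysyl oxidase of fibrillar collagens and elastin, lies on chromosome 7 from 31755124 to 31767581. Its FPKM was 4.84, 1.75 and 4.36 in Shandong black animals, against 3.08, 2.06 and 1.32 in Luxi animals, with a log2 fold change of -0.53 (SE 0.34). The Shandong black replicate 2 lay within the Luxi range, so the breeds overlapped. LOXL1, a lysyl oxidase known for its part in elastic fibres, lies on chromosome 21 from 34663476 to 34687411. Its FPKM was 3.998, 1.67 and 3.84 in Shandong black animals, against 1.41, 1.55 and 4.55 in Luxi cattle. The highest of all 6 animals was the Luxi replicate 3, and the log2 fold change was -0.31 (SE 0.39). Over the fits without 1 animal, LOXL1 ranged from -0.69 to -0.09 and LOX from -0.87 to -0.32 in log2 fold change.

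**Figure D2:**
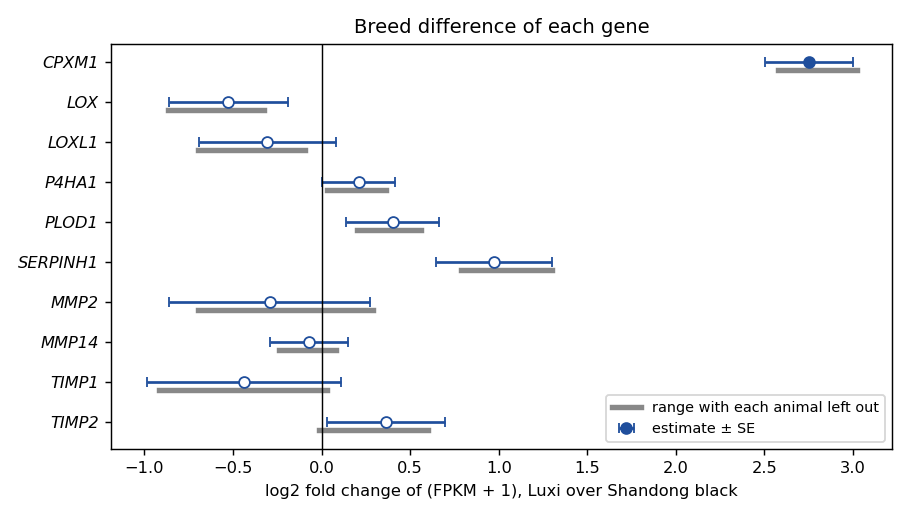
Log2 fold change of (FPKM + 1), Luxi over Shandong black cattle, for each of the 10 genes, with the standard error as blue bars and the range over the 6 fits that each left out 1 animal as grey bars. The filled marker is CPXM1, at 2.75, the 1 gene called, and the grey bars of MMP2, MMP14, TIMP1 and TIMP2 cross 0.

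The metalloproteinases differed by less than the spread between animals. MMP2 encodes gelatinase A, which degrades denatured collagen and basement membrane collagen, and lies on chromosome 18 from 23753066 to 23779474. It had 34.3, 11.7 and 23.3 FPKM in Shandong black animals, against 28.9, 23.6 and 7.02 in Luxi animals. The Luxi replicate 3 was the lowest of all 6 animals, although MMP2 had the highest mean of the 10 genes in Shandong black animals. The log2 fold change was -0.29 (SE 0.57), and it was 0.29 without the Luxi replicate 3 and 0.04 without the Shandong black replicate 1. MMP14 encodes a membrane-bound collagenase that also activates the MMP2 proenzyme, and lies on chromosome 10 from 21969250 to 21977729. Its FPKM was 3.71, 2.03 and 2.96 in Shandong black animals, against 2.25, 2.42 and 3.41 in Luxi animals, with a log2 fold change of -0.07 (SE 0.22). Its direction changed when the Shandong black replicate 1 or the Luxi replicate 1 was left out, with 0.08 and 0.02.

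The inhibitors TIMP1 and TIMP2 did not separate the breeds. TIMP1, which inhibits most secreted metalloproteinases, lies on the X chromosome from 85939574 to 85943558. The Shandong black animals had 3.68, 1.57 and 8.12 FPKM, against 5.90, 1.28 and 1.81 in Luxi animals. The highest animal had 5.17 times the FPKM of the lowest among the former and 4.60 times among the latter. The log2 fold change was -0.44 (SE 0.55), and it was 0.03 without the Shandong black replicate 3. TIMP2, which inhibits MMP2 and also joins MMP14 in its activation, lies on chromosome 19 from 53460835 to 53512593. The Shandong black animals had 16.6, 15.2 and 15.9 FPKM, against 35.6, 14.5 and 16.9 in Luxi animals. The Luxi replicate 1, the animal with the high smooth muscle and pericyte sum, was far above the rest, and the log2 fold change of 0.36 (SE 0.33) became -0.02 without it. The part of those cells in this value was not tested.

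Some assembled transcripts at these loci were left out of the sums because fewer than 50% of their bases lay on the exons of the gene. The nearest to that limit were an assembled SERPINH1 transcript in the Shandong black replicate 3, with 58.1% on exons and an FPKM of 0.766, which was added, and a TIMP2 transcript in the Luxi replicate 2, with 44.0% on exons and an FPKM of 7.32, which was not. With every assembled transcript on the same strand added, TIMP2 in the Luxi replicate 2 was 21.9, the breeds no longer overlapped, and the log2 fold change was 0.55. For SERPINH1 the same step gave 18.7 in the Luxi replicate 2 and a log2 fold change of 0.99, still without overlap. For P4HA1 it gave 5.11 in the Luxi replicate 2, just above the highest Shandong black animal at 5.09, and a log2 fold change of 0.25. The breeds thus no longer overlapped for P4HA1 either, but the transcript added, of 0.528 FPKM, had 0% of its bases on P4HA1 exons. This step was chosen after seeing the data.

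The spread within a breed was shared by several of the genes. In 8 of the 10 genes the Shandong black replicate 2 was the lowest of its breed, and 44.9% of all genes tested were lowest in that animal. CPXM1 and P4HA1 were the exceptions, and both were lowest in the replicate 1. Averaged over the 10 genes, the replicate 2 lay 0.41 log2 units below its breed mean. In the same animal the summed FPKM of 5 tendon cell markers was 41.2, against 136 and 106 in the Shandong black replicates 1 and 3, and that of 8 fibroblast and fibro-adipogenic progenitor markers was 101, against 134 and 121. THBS4 and COMP held most of these tendon sums, and DCN held 56.8 of the fibroblast sum in the replicate 2. The fibroblast marker CD34 went the other way, with 13.3 FPKM in the replicate 2 against 10.6 and 11.5, and THY1 was not lowest there. The fibroblast marker TCF21 was at 0 in 5 of the 6 libraries, and the tendon marker TNMD was at 0 in the Luxi replicate 2. The library of the Shandong black replicate 2 also had the most transcripts of its breed and the largest share of FPKM left out of the gene sums. The parts of these cell types and of the library in the values of the 10 genes were not tested.

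In Luxi cattle the lowest animal differed more from gene to gene. The replicates 1, 2 and 3 were lowest for 4, 4 and 2 of the 10 genes, beside 47.2%, 32.8% and 20.0% of all genes tested. The Luxi replicate 1 was highest for LOX, P4HA1, MMP2, TIMP1 and TIMP2, and lowest for CPXM1, LOXL1, PLOD1 and MMP14. The Luxi replicate 3 was highest for LOXL1, PLOD1, SERPINH1 and MMP14, and lowest for LOX and MMP2. The Luxi replicate 2 was highest for CPXM1 and lowest for P4HA1, SERPINH1, TIMP1 and TIMP2. It lay below the breed mean in 8 of the 10 genes, by 0.18 log2 units on average over the 10. The median SD of the 10 genes on the log2(FPKM + 1) scale was 0.33 in Shandong black animals and 0.52 in Luxi animals, and over all genes tested it was 0.19 and 0.31. Fibroblast marker sums were 215, 165 and 124 in the Luxi replicates 1, 2 and 3, of which DCN held 133, 117 and 71.0. The fibroblast markers went both ways between the breeds. PDGFRA, CD34 and THY1 were higher in every Luxi animal. DPT was lower in every Luxi animal, at 6.81 to 9.30 FPKM against 10.2 to 12.3, and the PI16 mean was 3.52 against 8.05. Tendon marker sums were 54.4, 14.1 and 64.2 in the Luxi replicates 1, 2 and 3. THBS4 held most of these tendon sums. The tendon marker COMP was 2.83, 1.11 and 0.259 FPKM in Luxi animals, against 44.3, 9.06 and 32.4 in Shandong black animals.

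**Figure D3:**
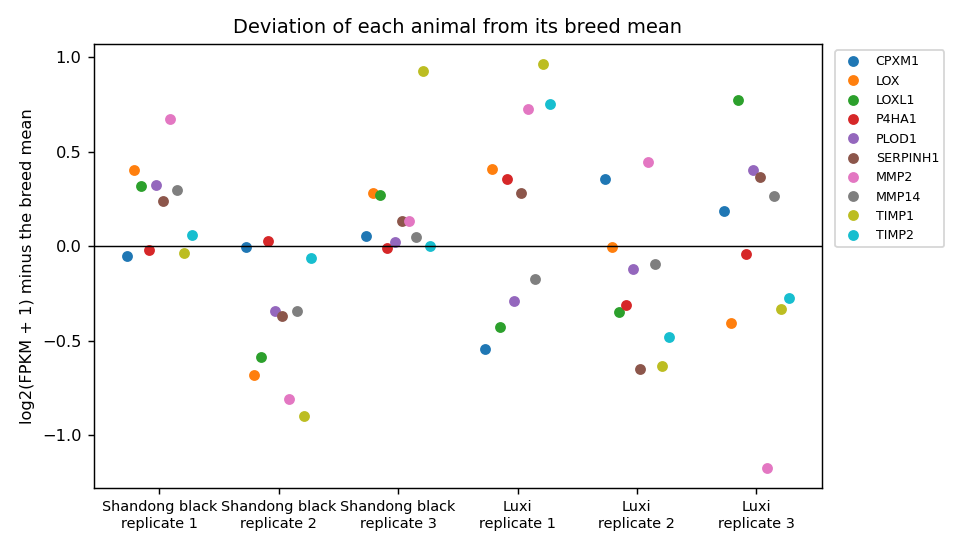
Deviation of each animal from the mean of its breed, in log2(FPKM + 1), with a colour for each of the 10 genes. Of the 10 genes, 9 lie below 0 in the Shandong black replicate 2, with a mean of -0.41, and 8 in the Luxi replicate 2, with a mean of -0.18, while the genes part in both directions in the Luxi replicates 1 and 3.

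The order of the levels differed between the breeds. By mean FPKM in Shandong black animals it was MMP2 at 23.1, TIMP2 at 15.9, SERPINH1 at 12.3, PLOD1 at 8.59, P4HA1 at 4.98, TIMP1 at 4.46, LOX at 3.65, LOXL1 at 3.17, MMP14 at 2.90 and CPXM1 at 0.261. Neighbours in that order had overlapping ranges, except TIMP2 and SERPINH1, PLOD1 and P4HA1, and MMP14 and CPXM1. In Luxi animals it was SERPINH1 at 26.0, TIMP2 at 22.4, MMP2 at 19.8, PLOD1 at 11.7, CPXM1 at 7.78, P4HA1 at 6.05, TIMP1 at 2.997, MMP14 at 2.69, LOXL1 at 2.50 and LOX at 2.15, and the ranges of all neighbours overlapped. CPXM1 was thus the lowest of the 10 genes in Shandong black animals and the fifth in the Luxi order.

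Ratios of genes within an animal do not depend on the scaling of the library, and 7 such ratios were formed. The LOX level per COL1A1, the gene of the main chain of type I collagen, was 0.135, 0.1003 and 0.119 in Shandong black animals, against 0.0254, 0.0278 and 0.0154 in Luxi cattle. All Luxi animals were below all Shandong black animals, and the mean log2 ratio was -3.09 ± 0.22 and -5.49 ± 0.46 (SD, n = 3 each), 5.29 times lower in Luxi cattle. The PLOD1 level per COL1A1 was 0.302, 0.368 and 0.234 in Shandong black animals, against 0.0760, 0.141 and 0.182 in Luxi cattle, also without overlap, and 2.37 times lower in the mean. For SERPINH1 per COL1A1 the breeds overlapped, with 0.404, 0.522 and 0.365 in Shandong black animals, against 0.250, 0.208 and 0.378 in Luxi cattle. COL1A1 itself was 35.8, 17.5 and 36.5 FPKM in Shandong black animals, against 121, 74.0 and 85.2 in Luxi cattle. Its breeds did not overlap, while LOX and PLOD1 alone overlapped. How many of all genes would separate the breeds per COL1A1 was not computed. Neither separation is therefore read as particular to LOX or PLOD1. With reference transcripts only, the log2 fold change of COL1A1 was 1.29 in place of 1.65.

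The 4 ratios between members overlapped between the breeds. TIMP1 per TIMP2 was 0.222, 0.103 and 0.511 in Shandong black animals, against 0.166, 0.0882 and 0.107 in Luxi cattle. MMP2 per TIMP2 was 2.07, 0.767 and 1.47 in Shandong black animals, against 0.812, 1.62 and 0.414 in Luxi animals, so it lay on both sides of 1 within each breed. LOX per LOXL1 was close to even in Shandong black cattle, at 1.21, 1.05 and 1.14, and spread from 2.18 and 1.33 to 0.290 in the Luxi replicates 1, 2 and 3. In the same Luxi replicate 3, MMP14 per MMP2 was 0.485, while in the other 5 animals it was 0.0778 to 0.174.

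**Figure D4:**
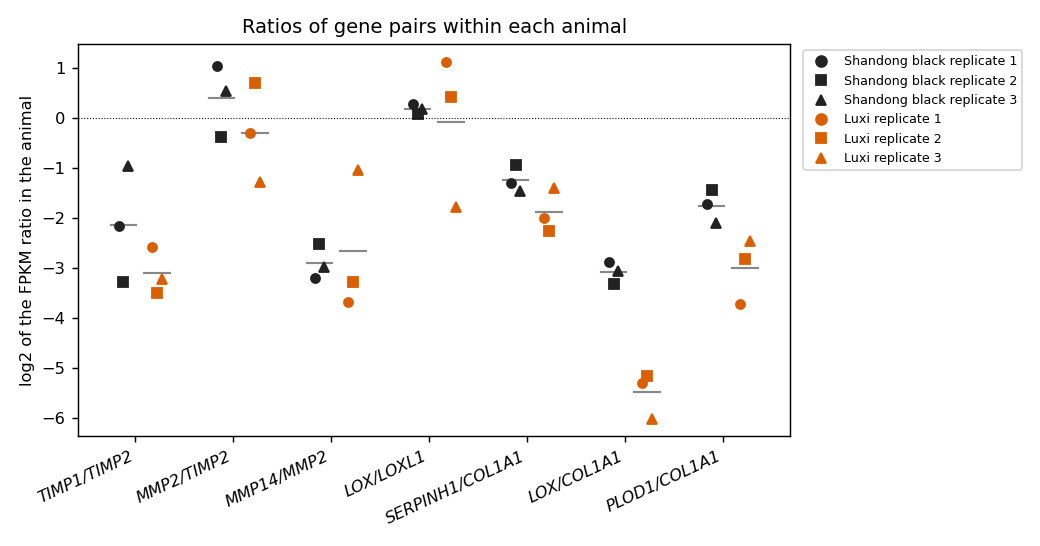
Log2 of the ratio of FPKM values of 2 genes in the same animal, with Shandong black cattle in black, Luxi cattle in orange and grey bars for the breed means. LOX/COL1A1 has a breed mean of -3.09 in Shandong black and -5.49 in Luxi cattle and, with PLOD1/COL1A1, separates the breeds, while the other 5 ratios overlap.

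The files list transcripts, so the transcripts that carried each gene could be read, with the limit that StringTie shares out the reads that transcripts have in common. SERPINH1 had a transcript of 5 exons and one of 6 exons. The 6-exon transcript made up 51.8%, 10.3% and 47.0% of the gene's FPKM in the Shandong black replicates 1, 2 and 3 and 11.8%, 26.1% and 12.3% of it in the Luxi replicates. The Shandong black replicate 2 stood with the Luxi animals here. In the Luxi replicate 3, an assembled SERPINH1 transcript held 9.18 FPKM, and reference transcripts carried 71.5% of the gene.

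TIMP1 was carried by a transcript of 808 bases at 88.3% to 99.98% in 5 animals, but in the Luxi replicate 2 a transcript of 954 bases held 89.7%. LOX was carried by its 7-exon transcript at 84.3% to 99.6%. P4HA1 had 8 reference transcripts, of which one of 15 exons and 2639 bases held 59.9% to 73.6%. CPXM1, LOXL1, PLOD1, MMP2, MMP14 and TIMP2 had a single reference transcript each.

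The 10 genes were set beside 69 other genes of collagen production and turnover, in 6 lists, of which 56 were found by name and 50 were tested. Of these, 7 (14%) were called, all higher in Luxi cattle, beside the 2.57% of all genes called and the 1.54% called higher. At an unadjusted limma p under 0.05 there were 22 (44%), of which 18 (36%) were higher in Luxi cattle, beside 21.8% and 15% of all genes tested. In direction alone, 33 of the 50 and 62.5% of all genes tested were higher in Luxi cattle. The median log2 fold change was 0.47 over the 50 genes, beside 0.13 over all genes tested. The lists were chosen with earlier results of these data known. These shares and the adjusted p values of the list genes are therefore a description and not a test. Without a filter on FPKM, COL3A1 was the 1 gene called. The calls moved with single animals. Without the Shandong black replicate 1 or the replicate 3 limma called 0, with 14 and 17 at an unadjusted p under 0.05. There were 2 calls without the Shandong black replicate 2, and 9, 2 and 1 without the Luxi replicates 1, 2 and 3. COL3A1 passed in 4 of these 6 fits, TGM2 and COL5A1 in 2 each, and COL1A2, ADAMTS2, MMP15 and TIMP3 in 1 each.

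Of the fibrillar collagens, 3 of 7 were called higher and none lower, with a median log2 fold change of 1.52. COL3A1, the chain of type III collagen, was 22.4, 20.4 and 23.2 FPKM in Shandong black animals, against 194, 145 and 192 in Luxi animals. Its log2 fold change was 2.94 (SE 0.24, limma adjusted p = 0.0073). With a pseudocount of 0.1 it was 2.99, where CPXM1 had 4.39. COL3A1, like CPXM1, lost its call when the Shandong black replicate 1 or 3 was left out, where 10 and 3 of all genes were called. COL1A2, a chain of type I collagen, was called with 1.67 (SE 0.28, limma adjusted p = 0.032) though not with TPM (1.61), and COL5A1, a chain of type V collagen, with 1.52 (SE 0.23, limma adjusted p = 0.026) though not with reference transcripts only (1.925). COL1A1 had a log2 fold change of 1.65 (SE 0.36, limma adjusted p = 0.059) and was not called, although the breeds did not overlap.

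Of the genes for collagen modification and folding inside the cell, 0 of 13 were called by limma, while 2 had an unadjusted p under 0.05. The median log2 fold change was 0.26, in a range from -0.48 to 1.03. Without overlap of the breeds, 3 were higher and 2 lower in Luxi cattle, beside 29.1% of all genes tested that did not overlap. The list genes with the highest levels were PPIB, a proline isomerase of the endoplasmic reticulum, with a log2 fold change of -0.07 (SE 0.25), MIA3, which helps export collagen, with 0.62 (SE 0.27), and P4HA2, the sister subunit of P4HA1, with -0.48 (SE 0.20). MIA3 did not overlap, at 4.10 to 4.63 FPKM in Shandong black animals and 4.81 to 10.8 in Luxi animals, with a limma adjusted p of 0.24. P4HA2 lay on the other side of 0 from P4HA1 and its breeds did not overlap, at 5.47 to 8.32 FPKM in Shandong black animals and 3.96 to 5.32 in Luxi animals, but the limma adjusted p was 0.22. P4HB, the partner subunit of P4HA1, was not analysed here.

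Of the genes for procollagen trimming and the relatives of CPXM1, 1 of 7 was called. This was ADAMTS2, the procollagen N-proteinase, with 1.52 ± 0.18 and 4.23 ± 0.75 FPKM (SD, n = 3 each) in Shandong black and Luxi cattle and a log2 fold change of 1.05 (SE 0.17, limma adjusted p = 0.032). It was not called with size factors or TPM, where the log2 fold changes were 0.94 and 1.16, nor without a filter on FPKM. With reference transcripts only, its mean FPKM stayed under 1 in both breeds and it was not tested. Most of its Luxi level thus came from assembled transcripts. PCOLCE, an enhancer of C-terminal trimming, had a log2 fold change of 0.65 (SE 0.23), its relative PCOLCE2 -0.91 (SE 0.30) and the carboxypeptidase CPD 0.58 (SE 0.19), and none of these was called. CPXM2 and AEBP1, the nearest relatives of CPXM1, had log2 fold changes of -0.52 and -0.52 (SE 0.41 and 0.48) and overlapped between the breeds. They were named after their values were seen.

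**Figure D5:**
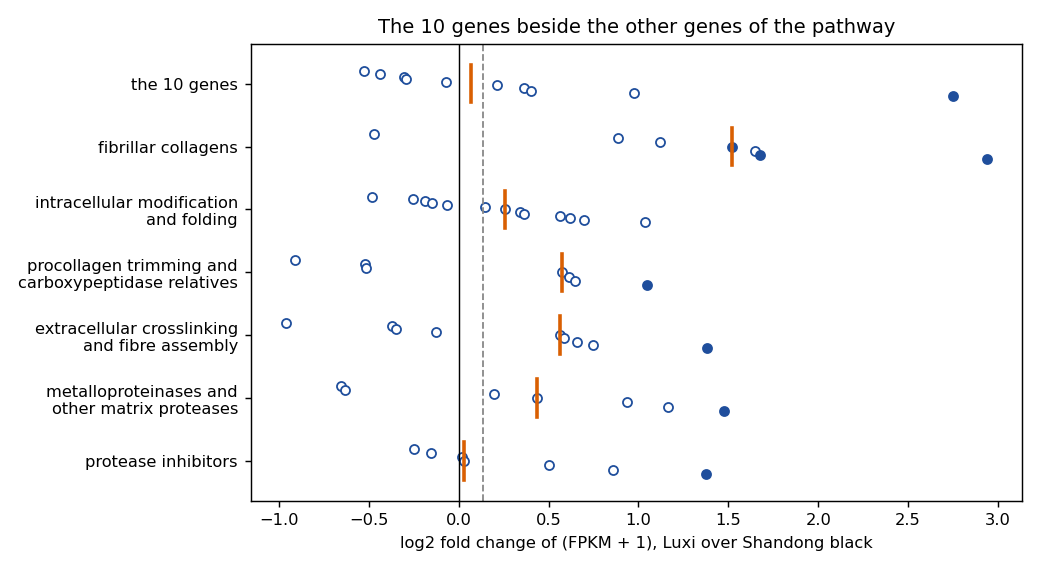
Log2 fold change of (FPKM + 1), Luxi over Shandong black cattle, for the 10 genes and for the tested genes of the 6 lists, with called genes filled, list medians as orange bars and the median of all genes tested, 0.13, as a dashed line. The 7 called genes of the lists lie at or above 1.05, and the median of the fibrillar collagens, 1.52, is above that of the 10 genes, 0.07.

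Of the genes for extracellular crosslinking and fibre assembly, 1 of 9 was called. TGM2, a transglutaminase that forms crosslinks by another reaction than LOX, rose from 1.95 ± 0.33 to 6.82 ± 1.86 FPKM (SD, n = 3 each), a log2 fold change of 1.38 (SE 0.22, limma adjusted p = 0.029). With TPM it was 1.49 and not called. The genes with the highest levels were FBN1, the main microfibril protein, with a log2 fold change of -0.13 (SE 0.24), FN1, which encodes fibronectin, with 0.58 (SE 0.24), and FBLN5, an elastic fibre protein, with -0.35 (SE 0.27). None of these 3 was called, and the breeds did not overlap for FN1.

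Of the other matrix proteases, 1 of 7 was called. MMP15, a membrane-bound relative of MMP14, was 1.17, 1.34 and 1.51 FPKM in Shandong black animals, against 3.72, 8.06 and 5.43 in Luxi animals, with a log2 fold change of 1.48 (SE 0.25, limma adjusted p = 0.033). MMP14 itself overlapped between the breeds. ADAMTS1, a protease of proteoglycans, had a log2 fold change of 1.17 (SE 0.28, limma adjusted p = 0.077), and MRC2, a receptor for the uptake of collagen, 0.93 (SE 0.23, limma adjusted p = 0.083).

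Of the protease inhibitors, 1 of 7 was called. TIMP3, the TIMP that binds to the matrix, was 22.3, 18.5 and 20.8 FPKM in Shandong black animals, against 61.6, 41.7 and 63.4 in Luxi animals, with a log2 fold change of 1.37 (SE 0.25, limma adjusted p = 0.038). With TPM it was 1.28 and not called. Its level was above that of TIMP1 and TIMP2 in each of the 6 animals. CST3, which encodes the cathepsin inhibitor cystatin C, had a log2 fold change of 0.50 (SE 0.41), and A2M, a broad protease inhibitor, 0.02 (SE 0.41), which was below 0 with TPM and with size factors.

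The profile of the 10 genes over the 6 animals was summarised as their mean log2(FPKM + 1), each gene centred on its own mean. This mean profile was -0.56 in the Shandong black replicate 2, 0.36 in the Luxi replicate 1 and between -0.03 and 0.13 in the other 4 animals. Measured by the root mean square difference, P4HA1 was nearest to it among the members, at 0.24, and CPXM1 farthest, at 1.298. Outside the members, the nearest genes were DAP at 0.059, FAM129B at 0.062, TGFB1 at 0.063, CD99 at 0.063 and PITPNB at 0.078. DAP, for example, was 3.96, 2.58 and 3.77 FPKM in Shandong black animals, against 5.18, 3.69 and 4.17 in Luxi cattle. The set of nearest genes depended on single animals, as 0 to 3 of these 5 were among the nearest 5 when 1 animal was left out.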

How the data were processed

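Total RNA of the longissimus dorsi muscle was sequenced on an Illumina platform. After trimming with Fastp and alignment to ARS-UCD1.2 with HISAT, the authors ran StringTie on each library with the NCBI annotation. They deposited, per transcript, the coverage (mean reads per base), the FPKM and the TPM. Gene FPKM was computed here by summing the reference transcripts of a gene and unnamed assembled transcripts lying by 50% or more on its exons on the same strand, in Python 3.11.15 with pandas 2.3.3. The study's methods name no strand-specific library protocol, and the strand given for assembled transcripts was not checked. A gene missing from a library was counted as 0. Gene coordinates are those of the files.

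Genes whose mean FPKM reached 1 in either breed were fitted with limma 3.58.1 in R 4.3.3 on log2(FPKM + 1), with a trended prior variance and Benjamini-Hochberg adjustment over all 9781 genes. FPKM carries no counts, so no count model was used, and Cuffdiff, which needs alignments, was not run. The fit was tested on simulated data. Per the study's methods, the libraries of a breed are separate animals. The members and the lists were chosen with earlier results of these data known. Of each list, called genes and the 3 with the highest mean FPKM were named, and the 5 genes nearest in profile. The alternatives were a pseudocount of 0.1, no filter, median-of-ratios size factors, TPM, a mean FPKM of 5 or more, no trend, a replicate block, reference transcripts only and leaving out each animal. Precision is limited by 3 animals per breed. No sequences are shown.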

Additional observations from a re-analysis of the deposited data

How the results depend on the processing

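Of the 10 genes, 1 was called in every setting except with a mean FPKM of at least 5, which left CPXM1 untested and 0 called by limma with 1 at an unadjusted p under 0.05, and in the fits that left out 1 animal, where 0 to 1 were called and 1 to 2 had an unadjusted p under 0.05. In the 6 lists, where 7 genes were called, the number was 1 without a filter on FPKM, 4 with a mean FPKM of at least 5, 3 with TPM, and 0 to 9 with 1 animal left out, and it stayed within 1.5 times with the other settings. Over all genes the 251 calls became 63 without a filter, 134 of 3942 under the filter at 5, 163 with reference transcripts only, and 3 to 593 with 1 animal left out. The cause was not tested. With reference transcripts only, the difference of the log2 LOX/COL1A1 ratio was -2.04 in place of -2.40. With 1 animal left out, the difference of MMP14/MMP2 ranged from -0.58 to 0.74 and that of LOX/LOXL1 from -0.87 to 0.59. Of the 5 genes nearest in profile, 3 were shared with a pseudocount of 0.1, 3 with reference transcripts only, 4 with size factors and 0 to 3 with 1 animal left out.

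Same-numbered animals of the 2 breeds are different animals. The correlations of their deviations from the breed means were 0.084, 0.087 and 0.074, all under 0.1, so the numbers were not taken to pair the samples, although each animal correlated best with its own number. With the replicate block, 1 of the 10 genes, 5 genes of the lists and 135 of all genes were called, and ADAMTS2 and TIMP3 were the 2 list genes no longer called.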
